A study of Rattus norvegicus with 4 samples.

Results

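The solute carriers are the large superfamily of membrane transporters that move sugars, amino acids, ions, metals, nucleosides, vitamins and metabolites across cell and organelle membranes. The genes described here were those whose single symbol in the array's annotation begins with Slc and a number, apart from Slc8a1, Slc27a1, Slc25a20, Slc2a1, Slc2a3 and Slc2a4. That gave 222 genes on 272 probe sets, out of 10411 genes named on the array. Each gene was represented by its probe set with the highest mean signal over all 4 arrays. Of the 222 genes, 130 were bright enough to be tested and 92 were too dim, and 29 of them, 20 tested, belonged to Slc25, the mitochondrial carrier family, in which Slc25a17 is a carrier of peroxisomes. The symbols Slc4a1ap and Slc7a6os match as well, although their products are not carriers. They were counted among the 222 and kept apart from the substrate groups.

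The cells were neonatal rat ventricular myocytes, contractile cells of the newborn heart in primary culture. Control cells had been plated in uncoated dishes and fibronectin cells in dishes coated with fibronectin, a matrix glycoprotein bound by integrins. Both kinds of dish had 10% serum for 24 h, followed by 48 h of serum-free culture. Total RNA of 2 samples per group was measured on rat expression arrays, and the labels name no strain, treatment or genotype beyond the coating and do not say whether the samples of a group were separate cultures. The spread behind every p-value is therefore that of these arrays and may be of technical origin.

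Heart muscle relies on carriers at several membranes. In the inner mitochondrial membrane, ADP/ATP carriers and the phosphate carrier supply oxidative phosphorylation and export the ATP it makes, while other Slc25 proteins pass citrate, malate, aspartate and cofactors. In the plasma membrane, heteromeric and sodium-coupled carriers bring in amino acids, taurine, creatine and carnitine, monocarboxylate carriers pass lactate with protons, and bicarbonate, proton and chloride carriers set the pH and volume of the cell. In lysosomes, the Golgi and the endoplasmic reticulum, further members move nucleosides, nucleotide sugars, metals and acetyl-CoA.

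Signals were set to a common distribution over the 4 arrays (quantile normalization), raised to a floor of 23.4 and given as log2, so that the lowest value is 4.55. Differences are the mean log2 signal on fibronectin minus that on control, with limma's moderated standard error (SE). Fibronectin replicate 2 stood apart: its log2 signals over the tested solute carriers correlated with the other 3 arrays at r of 0.781 to 0.797, where those 3 correlated with each other at 0.878 to 0.921. These are descriptions across genes measured on the same arrays. It held the highest of the 4 values for 51 of the 130 tested members and the lowest for 35, that is 39.2% and 26.9%, against 32.8% and 33.2% of all 7101 genes tested. Its deposited values were also the coarsest, in steps of 1.95 signal units against 0.1 to 0.233 on the others. The 3' to 5' signal ratio of the Gapdh control probe sets was 1.64 and 1.15 on the controls, against 6.02 and 3.52 on fibronectin. That of beta-actin was 1.46 and 1.40 on the controls, against 13.0 and 6.29 on fibronectin, so both ratios separated the groups. All 10 ventricular myocyte markers on the array were tested, with a summed signal of 77195 to 88273 on the controls and 82695 to 83635 on fibronectin. After quantile normalization 6 of them differed above 0 and 4 below, from -0.94 for Atp2a2 to 0.97 for Ryr2. On the deposited scale, without that normalization, Atp2a2 differed by -0.33 and the others by 0.05 (Pln) to 1.16 (Tnnc1). Of 9 fibroblast markers 8 were lower on fibronectin, and their summed signal was 32588 and 49081 on the controls and 18759 and 30935 on fibronectin. Col1a1, Col1a2 and Col3a1 differed by -0.78, -0.57 and -0.72 in log2 signal, but by -0.05, 0.03 and -0.01 on the deposited scale. On that scale Dcn, Lum, Ogn, Pdgfra and Postn differed by -1.50, -0.80, -1.49, -0.78 and -0.72, and Ddr2 by 0.24. Of 6 tested leukocyte markers 5 were lower. Summed over all 8 leukocyte markers on the array, dim ones included, the signal was 1528 and 1870 on the controls against 1071 and 1176 on fibronectin. The part of RNA quality or of these other cells in the differences below was not tested, and in cultures measured as a whole, fewer cells of a type and less RNA per cell cannot be told apart.

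As a group the solute carriers differed between the dishes about as often as other genes did. In limma's test 0 of 130 members passed a Benjamini-Hochberg adjusted p of 0.05, as did 0% of all genes tested, and the lowest adjusted p of a member was 0.743. Unadjusted p-values fell below 0.05 for 4 members, Slc7a3 and Slc45a4 higher and Slc3a1 and Slc44a2 lower. That is 1.54% in each direction, against 3.03% of all genes higher and 2.65% lower. Both fibronectin arrays lay above both controls for 28 members and below both for 28, or 21.5% each, against 20.6% and 17.2% of all genes. A difference of at least 1 without overlap was found for 3 members in the higher direction (2.31%, background 3.55%) and for 6 in the lower direction (4.62%, background 4.03%). All of these shares lie near the background and set the solute carriers apart from nothing. The median difference was 0.05 over the 130 members and 0.02 over all genes. For 84 members, 64.6%, the difference was smaller than 0.5 in size, against 63.4% of all genes. Without fibronectin replicate 1 the members past the adjusted threshold were 2, Slc12a5 and Slc35a1, and those at least 1 higher and lower were 14 and 17, in a fit where the lone fibronectin array is assumed to vary like the controls and where 337 of all 9519 probe sets passed. Without fibronectin replicate 2 the same counts were 0, 2 and 5.

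**Figure D1:**
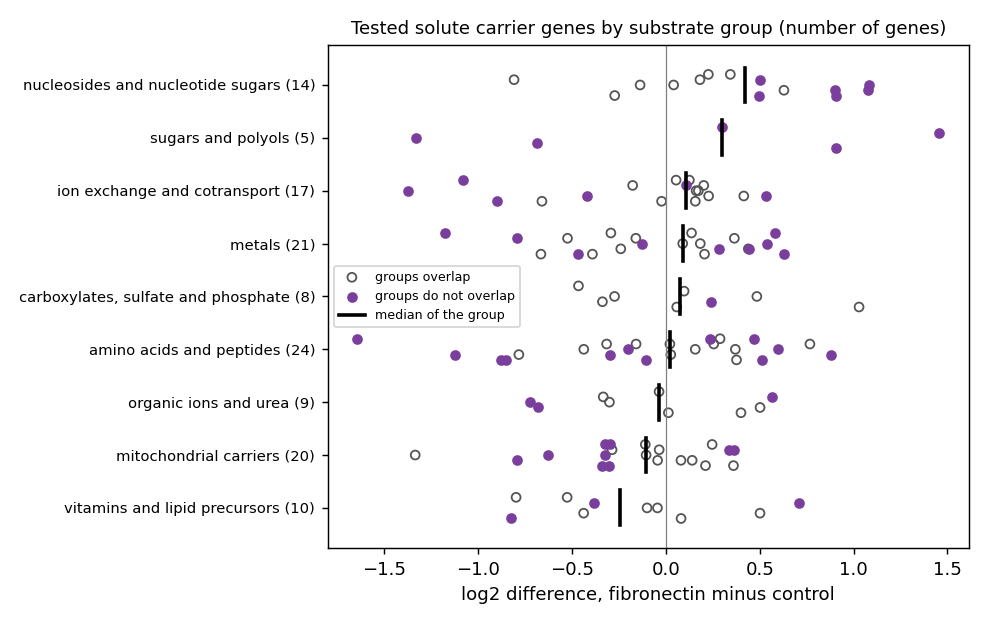
Log2 difference, fibronectin minus control, of each tested solute carrier gene, by substrate group, with the number of genes in brackets. Filled points are genes whose groups do not overlap and bars are group medians, which run from -0.24 for vitamins and lipid precursors to 0.42 for nucleosides and nucleotide sugars.

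The ADP/ATP and phosphate carriers of mitochondria measured lower on fibronectin after quantile normalization, a direction that both other scalings turned for Slc25a3 and Slc25a4 and the deposited scale turned for Slc25a5. Slc25a4, the ADP/ATP carrier of heart and muscle, measured 13.15 and 12.98 on the controls and 12.79 and 12.66 on fibronectin, a difference of -0.34 (SE 0.24). Slc25a5, the ADP/ATP carrier of proliferating cells, measured 11.96 and 11.97 against 11.48 and 11.81, a difference of -0.32 (SE 0.26). Slc25a3, the phosphate carrier, measured 13.61 and 13.23 against 13.11 and 13.13, a difference of -0.30 (SE 0.25). The groups did not overlap for these 3 genes, and the distances of 1.23- to 1.26-fold were close to their SE. On the deposited scale the differences were 0.26 for Slc25a4, 0.04 for Slc25a5 and 0.40 for Slc25a3, and with the arrays shifted to the same median 0.22, -0.01 and 0.36, so that the direction of Slc25a4 and Slc25a3 turned with both scalings. The 100 brightest tested probe sets had a median difference of 0.08 after quantile normalization and of 0.73 on the deposited scale. Slc25a11, the oxoglutarate carrier of the malate-aspartate shuttle, was lower under all 3 scalings. It measured 9.98 and 10.14 on the controls and 9.53 and 9.94 on fibronectin, with a difference of -0.33 (SE 0.30) and of -0.21 on the deposited scale. The adjusted p from limma was 0.778, 0.794, 0.797 and 0.808 for Slc25a4, Slc25a5, Slc25a3 and Slc25a11.

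**Figure D2:**
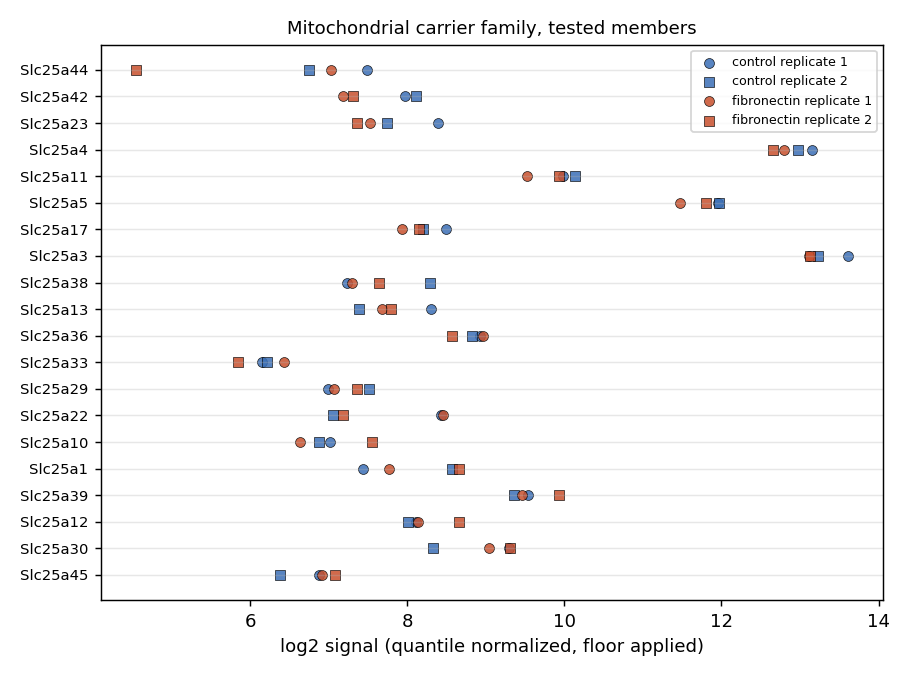
Log2 signal of the 20 tested Slc25 carriers on each of the 4 arrays, ordered from the lowest difference at the top to the highest at the bottom. Blue marks the controls and red the fibronectin arrays; fibronectin replicate 2 lies at the floor of 4.55 for Slc25a44, and signals of different genes are not comparable.

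Of the remaining Slc25 carriers, 3 more measured lower without overlap, Slc25a42, Slc25a23 and Slc25a17. Slc25a42, which exchanges coenzyme A across the inner membrane, measured 7.97 and 8.11 on the controls and 7.18 and 7.31 on fibronectin. Its difference of -0.80 (SE 0.38, 1.74-fold lower) stayed between -0.86 and -0.73 with any 1 array left out. Slc25a23, an ATP-magnesium and phosphate carrier regulated by calcium, measured 8.39 and 7.75 against 7.53 and 7.36, a difference of -0.63 (SE 0.41). Slc25a17, a cofactor carrier of the peroxisomal membrane, differed by -0.30 (SE 0.35). These 3 genes were named after their values were seen. Limma's adjusted p was 0.762 for Slc25a42.

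Shuttle and exchange carriers of the mitochondrion had small differences in both directions. Slc25a12, the aspartate-glutamate carrier of heart, muscle and brain, measured 8.11 and 8.01 on the controls and 8.14 and 8.65 on fibronectin, a difference of 0.33 (SE 0.37) without overlap. Its relative Slc25a13 differed by -0.11 (SE 0.44), Slc25a1, the citrate carrier, by 0.21 (SE 0.51), and Slc25a10, the dicarboxylate carrier, by 0.14 (SE 0.51), all with overlapping groups. For the last 3 the sign turned when 1 array was left out. Slc25a44, a carrier of branched-chain amino acids, had the difference of largest size among the 20 tested Slc25 carriers, -1.34 (SE 0.87), which rested on fibronectin replicate 2, which was at the floor while replicate 1 measured 7.03 between the controls at 6.75 and 7.49. In all, 13 of the 20 tested Slc25 carriers had differences below 0 and 7 above, with a median of -0.11, or 0.01 on the deposited scale. Without overlap 2 were higher and 7 lower, the shares over all genes being 20.6% higher and 17.2% lower, and 3 of those 7 changed sign with the scaling. The 110 tested members outside the family had a median of 0.09.

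Among 24 tested amino acid and peptide carriers, 5 were higher without overlap and 7 lower, the shares over all genes being 20.6% higher and 17.2% lower. Slc7a5, the light chain of the large neutral amino acid exchanger LAT1, measured 8.27 and 8.22 on the controls and 8.98 and 8.71 on fibronectin. Its difference was 0.60 (SE 0.33, 1.51-fold higher), and it ran from 0.46 to 0.73 when 1 array was left out. Slc3a2, the heavy chain that carries Slc7a5 to the membrane, measured 10.19 and 10.28 against 10.13 and 10.13, a difference of -0.11 (SE 0.27), and of 0.0014 on the deposited scale. Slc7a1 and Slc7a3, carriers of arginine and lysine, were both higher. Slc7a1 measured 8.56 and 8.48 against 8.86 and 8.65, a difference of 0.23 (SE 0.32), while its other tested probe set differed by -0.09 (SE 0.35). Slc7a3 measured 7.57 and 7.71 against 8.24 and 8.80, a difference of 0.88 (SE 0.38, 1.84-fold higher), with limma's adjusted p of 0.762. Slc38a1, a sodium-coupled glutamine carrier, measured 8.33 and 7.86 against 8.50 and 8.62, a difference of 0.47 (SE 0.36), but of -0.32 (SE 0.60) in its other tested probe set. Its relative Slc38a2 had the opposite sign, with 10.12 and 10.14 against 10.07 and 9.60 and a difference of -0.30 (SE 0.30).

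Amino acid carrier genes are known targets of the transcription factor ATF4, which binds an amino acid response element in times of shortage. The core TGATGNAA was searched on both strands in the RefSeq promoter windows of the GRCr8 assembly, which reach from 250 bases before to 50 bases after a gene's start. Windows were given for 189 of the 222 genes. The core occurred in those of 3 of the 109 tested members with a window, Slc7a1, Slc38a1 and Slc49a4, and in 3.98% of all 33469 windows. The windows of both amino acid carriers among them are shown with that of Slc7a5, which had the largest difference of the 3 and no match. Capitals mark the core, which lies at -30 to -23 from the start of Slc7a1 (chr12:11664238-11664537, plus strand) and at -142 to -135 from that of Slc38a1 (chr7:129681352-129681651, minus strand); the Slc7a5 window is chr19:66872363-66872662 on the minus strand. A match of letters is a description and no binding site.
Slc7a1: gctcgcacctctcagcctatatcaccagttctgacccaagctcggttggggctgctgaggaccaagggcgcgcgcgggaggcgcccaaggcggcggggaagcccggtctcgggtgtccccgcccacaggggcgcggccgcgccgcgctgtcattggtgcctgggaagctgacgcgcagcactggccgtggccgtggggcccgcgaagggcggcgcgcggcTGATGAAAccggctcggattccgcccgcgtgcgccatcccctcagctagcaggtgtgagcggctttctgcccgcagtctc
Slc38a1: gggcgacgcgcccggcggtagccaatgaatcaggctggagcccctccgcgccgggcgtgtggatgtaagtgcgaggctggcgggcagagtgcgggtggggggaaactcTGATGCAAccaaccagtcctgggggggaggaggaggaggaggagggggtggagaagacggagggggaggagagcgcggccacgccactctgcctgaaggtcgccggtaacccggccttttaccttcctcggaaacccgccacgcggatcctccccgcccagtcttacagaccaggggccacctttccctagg
Slc7a5: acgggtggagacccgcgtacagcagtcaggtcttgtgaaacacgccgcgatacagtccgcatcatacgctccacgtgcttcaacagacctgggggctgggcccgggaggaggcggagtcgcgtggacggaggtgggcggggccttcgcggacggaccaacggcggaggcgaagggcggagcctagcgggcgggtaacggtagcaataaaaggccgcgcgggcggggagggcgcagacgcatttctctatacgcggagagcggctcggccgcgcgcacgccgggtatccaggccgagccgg
A pair of further motifs gave fewer matches. The NRF1 motif, searched in its palindromic consensus form, occurred in the window of 1 tested member, Slc39a7, and in 0.852% of all windows, and the estrogen-related receptor motif TCAAGGTCA in that of 0 tested members and in 0.433% of all windows.

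The largest lower differences among amino acid carriers were those of Slc3a1 and Slc66a1. Slc3a1, the heavy chain of the kidney's cystine carrier, measured 6.86 and 7.38 on the controls and 5.29 and 5.66 on fibronectin, a difference of -1.65 (SE 0.63, 3.13-fold lower) with limma's adjusted p of 0.743. The difference stayed between -1.91 and -1.39 with any 1 array left out. Slc66a1, which exports cationic amino acids from lysosomes, measured 7.01 and 6.75 against 6.18 and 5.34, a difference of -1.12 (SE 0.64), or -0.70 without fibronectin replicate 2. Slc15a4, a lysosomal carrier of peptides and histidine, differed by -0.88 (SE 0.53) and Slc7a12 by -0.85 (SE 0.75), and for both a fibronectin array lay close below a control.

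Taurine and creatine, an osmolyte and an energy buffer of heart muscle, have carriers of the same family. Slc6a6, the taurine carrier, measured 8.48 and 7.82 on the controls and 8.67 and 8.65 on fibronectin, a difference of 0.51 (SE 0.37), against 0.04 (SE 0.49) in its other tested probe set. Slc6a8, the creatine carrier, measured 9.44 and 8.94 against 9.06 and 8.44, a difference of -0.44 (SE 0.37) with overlap. Its dimmer probe set had no overlap, with 7.51 and 8.31 against 5.89 and 7.36 and a difference of -1.29 (SE 0.60). The glutamate and neutral amino acid carriers Slc1a1, Slc1a3 and Slc1a5 differed by 0.03 (SE 0.64), 0.37 (SE 0.48) and -0.16 (SE 0.44), all with overlap. Slc7a8, the light chain LAT2, was too dim to be tested. It measured 4.69 and the floor of 4.55 on the controls and 6.54 and 6.21 on fibronectin, so the size of that difference is not measured.

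The group named for nucleosides and nucleotide sugars had the highest median of the substrate groups. Members were assigned to it by gene family, not by measured transport. It therefore holds the orphan members Slc35e3 and Slc35e4, both higher without overlap, whose substrates are not established. Of 14 tested members 11 had differences above 0, 6 were higher without overlap and 0 were lower, with a median of 0.42, or 0.41 on the deposited scale. Over all 7101 genes 51.4% of differences were above 0, and 20.6% of genes were higher and 17.2% lower without overlap. The median of these 14 genes relative to the control mean was 0.17 on fibronectin replicate 1 and 0.55 on fibronectin replicate 2, the array that stood apart. All 3 equilibrative nucleoside carriers had higher means on fibronectin. Slc29a1, the adenosine carrier of the plasma membrane, measured 6.62 and 6.33 on the controls and 6.96 and 6.99 on fibronectin, a difference of 0.50 (SE 0.51). Slc29a3, the carrier of lysosomes, measured 5.93 and 6.54 against 6.76 and 7.88, a difference of 1.08 (SE 0.59, 2.12-fold higher), or 0.53 without fibronectin replicate 2 and 1.64 without fibronectin replicate 1. Slc29a2, named after its values were seen, differed by 0.63 (SE 0.53) with 1 fibronectin array below a control.

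Members of the Slc35 family made up the rest of the tested genes in that group. Slc35b2, which brings the sulfate donor PAPS into the Golgi for the sulfation of proteoglycans, measured 6.98 and 6.95 on the controls and 7.50 and 8.59 on fibronectin. Its difference was 1.08 (SE 0.48, 2.11-fold higher, limma's adjusted p 0.762), or 0.53 without fibronectin replicate 2 and 1.62 without fibronectin replicate 1. The orphan members Slc35e3 and Slc35e4 differed by 0.91 (SE 0.57) and 0.90 (SE 0.52). Slc35e3 owed this to fibronectin replicate 2 at 8.28, as replicate 1 measured 6.86 beside a control at 6.84. Slc35a1, the carrier of CMP-sialic acid, likewise named after its values were seen, measured 8.52 and 8.04 against 8.69 and 6.25. Its difference was -0.81 (SE 0.73), or 0.41 without fibronectin replicate 2 and -2.03 without fibronectin replicate 1. Its other tested probe set had no overlap, with 6.82 and 7.43 against 6.38 and the floor and a difference of -1.66 (SE 0.78).

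Ion exchangers and cotransporters that govern the pH and volume of heart cells differed little. Slc4a3, the chloride-bicarbonate exchanger of heart muscle, measured 8.00 and 8.11 on the controls and 8.17 and 8.15 on fibronectin, a difference of 0.11 (SE 0.35, 95% interval -0.70 to 0.92). Slc4a2 and Slc4a4, an exchanger and a sodium-bicarbonate cotransporter, differed by 0.17 (SE 0.60) and 0.05 (SE 0.49) with overlap. Slc12a2, the sodium-potassium-chloride cotransporter, differed by -0.02 (SE 0.44), with an interval from -1.04 to 1.00. Slc12a4, a potassium-chloride cotransporter, measured 6.33 and 6.50 against 7.05 and 6.84, a difference of 0.53 (SE 0.52) without overlap, and Slc12a7 of the same kind differed by 0.20 (SE 0.43) with overlap.

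The larger differences of this group lay in members with little known role in heart muscle. Slc12a9 measured 7.21 and 7.38 on the controls and 6.32 and 6.10 on fibronectin, a difference of -1.08 (SE 0.50, 2.12-fold lower), and from -1.19 to -0.97 with any 1 array left out. Slc12a5, the potassium-chloride cotransporter of neurons, measured 7.24 and 6.86 against 6.81 and the floor of 4.55, so its difference of -1.37 (SE 0.83) was -0.24 without fibronectin replicate 2. Slc24a3, a potassium-dependent sodium-calcium exchanger, measured 7.07 and 7.38 against 6.99 and 5.66, a difference of -0.90 (SE 0.60), while its other tested probe set differed by 0.10 (SE 0.73).

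Metal carriers had 5 of 21 tested members higher without overlap and 4 lower, near the shares over all genes of 20.6% and 17.2%. Slc31a1, the copper importer, measured 7.76 and 7.79 on the controls and 8.33 and 8.30 on fibronectin. Its difference was 0.54 (SE 0.35, 1.45-fold higher) and ran from 0.52 to 0.55 with any 1 array left out. Its other probe sets were too dim to be tested and differed by -0.37 and -0.79, with overlap and with arrays at the floor. The magnesium carriers Slc41a2 and Slc41a3 differed by 0.58 (SE 0.41) and 0.63 (SE 0.39), both without overlap; Slc41a3 measured 7.16 and 7.26 against 7.93 and 7.75. Slc31a1 and Slc41a2 were named after their values were seen. Slc39a14, which imports zinc and iron, measured 8.61 and 8.19 against 7.38 and 7.83, a difference of -0.79 (SE 0.39, 1.73-fold lower). Slc30a5, a zinc carrier of the Golgi, measured 7.02 and 7.26 against 6.99 and 4.94, a difference of -1.18 (SE 0.75) that was -0.15 without fibronectin replicate 2. Of the iron carriers, Slc40a1, ferroportin, differed by 0.09 (SE 0.48), and Slc11a2, the divalent metal importer, by -0.67 (SE 0.52), with 0.36 (SE 0.58) for its other tested probe set. None of these passed limma's test, the lowest adjusted p of a metal carrier being 0.762.

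The largest higher difference among the 130 tested members was that of a sugar carrier. Slc45a4 measured 5.56 and 6.15 on the controls and 6.98 and 7.65 on fibronectin, a difference of 1.46 (SE 0.58, 2.75-fold higher, limma's adjusted p 0.753). It was 1.39 on the deposited scale and from 1.12 to 1.79 with any 1 array left out. Its relative Slc45a3 had the opposite sign, with 6.75 and 7.73 against 6.66 and 5.16 and a difference of -1.33 (SE 0.70), or -0.58 without fibronectin replicate 2. Slc2a13, a proton-coupled carrier of myo-inositol, measured 6.77 and 5.85 against 7.33 and 7.10, a difference of 0.91 (SE 0.55). Slc37a4, which moves glucose 6-phosphate into the endoplasmic reticulum, differed by -0.69 (SE 0.43), and was named after its values were seen.

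**Figure D3:**
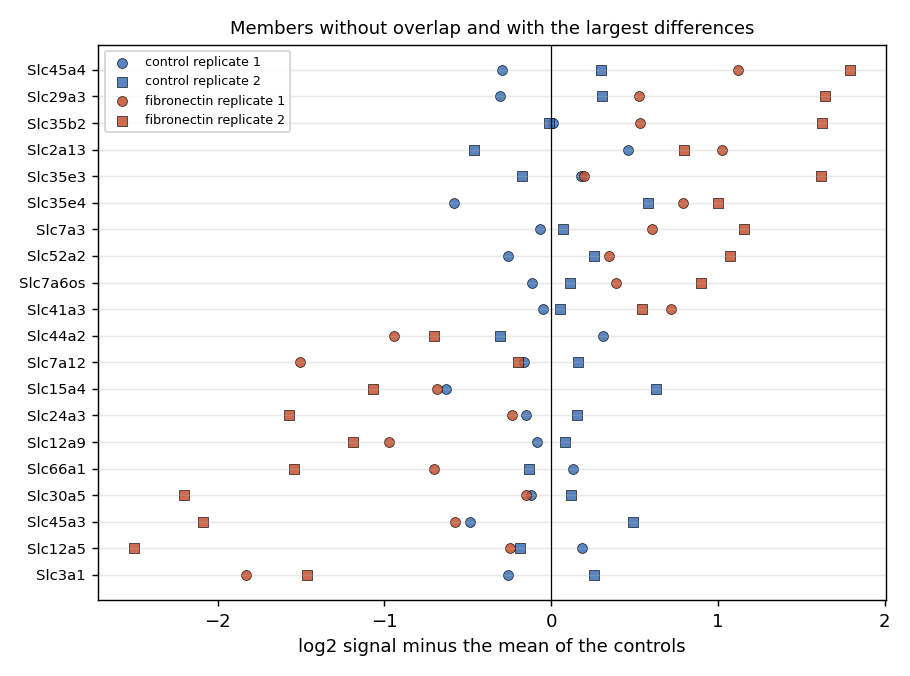
Log2 signal of each array minus the mean of the controls, for the 10 members per direction with the largest differences among those whose groups do not overlap. Slc3a1 and Slc45a4 lie at the ends, and for Slc12a5, Slc30a5, Slc24a3 and Slc35e3 fibronectin replicate 1 lies beside the controls while replicate 2 is far off. For Slc45a3 fibronectin replicate 1 lies beside control replicate 1, and replicate 2 is further off. Slc7a6os, with a difference of 0.64, is among the higher members although its product is not a carrier.

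Carriers of lactate, phosphate and carboxylates had 1 of 8 tested members higher without overlap and 0 lower, the shares over all genes being 20.6% higher and 17.2% lower. Slc16a1, the monocarboxylate carrier MCT1, measured 10.59 and 10.02 on the controls and 10.03 and 9.90 on fibronectin, a difference of -0.34 (SE 0.31). Slc16a3, the lactate exporter MCT4, differed by 0.48 (SE 0.42), with a control at 8.98 between the fibronectin arrays at 9.13 and 8.79. Slc20a1, a sodium-phosphate cotransporter, measured 8.36 and 8.62 against 8.71 and 8.75, a difference of 0.24 (SE 0.33). Slc20a2 of the same pair differed by -0.27 (SE 0.41), and by -2.30 (SE 0.70) in its dimmer probe set, where fibronectin replicate 2 was at the floor. Slc13a2, the dicarboxylate carrier, differed by 1.03 (SE 0.85), with control replicate 2 at 4.75 and control replicate 1 at 6.81 between the fibronectin arrays.

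Vitamin, lipid precursor and organic ion carriers included the carnitine and choline carriers. Slc44a2, a choline carrier-like protein, measured 10.25 and 9.63 on the controls and 9.00 and 9.24 on fibronectin, a difference of -0.82 (SE 0.33, 1.77-fold lower, limma's adjusted p 0.754), and from -1.13 to -0.51 with any 1 array left out. Slc44a1, the choline carrier, differed by -0.80 (SE 0.65) in its brightest probe set and by 0.32 and 0.20 in its other tested ones. Slc33a1, which takes acetyl-CoA into the endoplasmic reticulum, measured 8.10 and 7.92 against 7.77 and 7.48, a difference of -0.38 (SE 0.37). Slc52a2, a riboflavin carrier, measured 6.11 and 6.63 against 6.72 and 7.44, a difference of 0.71 (SE 0.55). Slc22a5, the carnitine carrier OCTN2, measured 7.42 and 6.85 against 6.77 and 6.14, a difference of -0.68 (SE 0.53) without overlap. Slc22a4 of the same subfamily was at the floor on all 4 arrays. Slc18a2, the vesicular monoamine carrier, differed by -0.73 (SE 0.60).

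**Figure D4:**
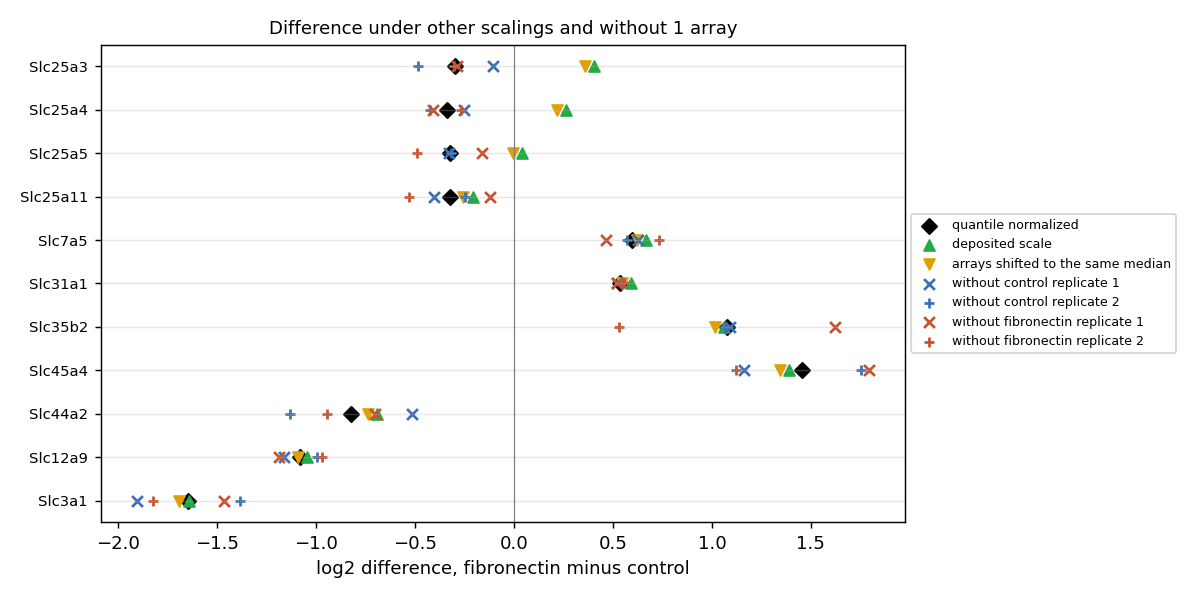
Log2 difference, fibronectin minus control, of 11 members after quantile normalization (black), on 2 other scalings (green and yellow) and with each array left out (blue and red). Slc25a3 and Slc25a4 change sign with both other scalings and Slc25a5 on the deposited scale, while Slc7a5, Slc31a1, Slc12a9 and Slc3a1 stay on their side of 0 in all 7 settings.

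Members of low signal and members with several probe sets limit what these arrays show. Of the 92 members that were too dim, 13 were at the floor on all 4 arrays, 37 on 2 or 3, 25 on 1 and 17 on none. Both controls were at the floor, and neither fibronectin array, for Slc26a3, Slc25a18 and Slc22a24, and the reverse held for 0 members. The share of all dim genes with either pattern was not counted, so these counts are not a result about the solute carriers. Fibronectin replicates 1 and 2 measured 4.91 and 6.78 for Slc26a3, 5.39 and 7.36 for Slc25a18, and 5.88 and 6.06 for Slc22a24. Of the tested members 15 had more than 1 tested probe set, and of their 16 further probe sets 6 had the sign of the brightest and 10 the opposite sign. The largest gap among them was that of Slc20a2, at -0.27 against -2.30. The sign of the difference was the same under all 3 scalings for 118 of the 130 tested members, 90.8%, against 93.4% of all genes, and also with each array left out for 69, 53.1%, against 51.1%.

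**Figure D5:**
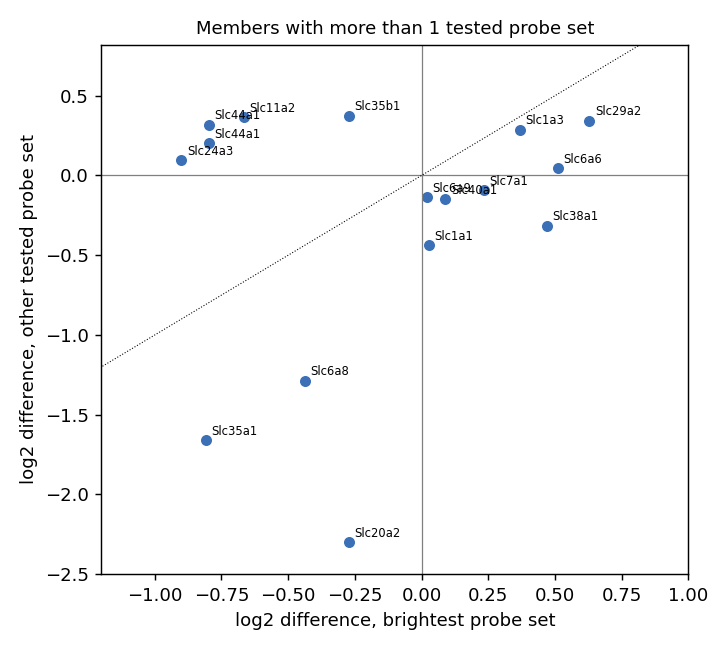
Log2 difference of the brightest probe set (horizontal) against that of each other tested probe set (vertical) for the 15 members with more than 1 tested probe set; the dotted line marks equal values. Of 16 points 10 lie in the quadrants of opposite sign, and Slc20a2, Slc35a1 and Slc6a8 have the lowest values in their other probe set.

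Relatives, partners and regulators of the solute carriers with other symbols were listed apart. Of 28 such genes 25 were on the array and 24 were tested, with 1 higher without overlap, 7 lower and 0 past limma's adjusted threshold, the shares over all genes being 20.6% higher and 17.2% lower without overlap. Their median difference was -0.22. Mtch2, a mitochondrial carrier homologue, measured 10.14 and 10.00 on the controls and 10.56 and 11.05 on fibronectin, a difference of 0.73 (SE 0.30). Bsg, basigin, the chaperone of Slc16a1 and Slc16a3, measured 11.10 and 10.96 against 10.25 and 10.61, a difference of -0.60 (SE 0.28), or -0.38 on the deposited scale. Wnk1, a kinase that regulates the Slc12 cotransporters, differed by -0.61 (SE 0.33). Atf4 differed by -0.23 (SE 0.26), and Vdac2, a porin of the outer mitochondrial membrane, by -0.21 (SE 0.25), or 0.13 on the deposited scale. Sgk1, a kinase that raises the surface level of many carriers, measured 7.04 and 7.40 against 6.56 and the floor, a difference of -1.66 (SE 0.78).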

How the data were processed

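The authors deposited 1 linear signal intensity per probe set and array; the software and scaling behind it are not given in the sources used here. Low values of each array are multiples of its own step, so the arrays had been scaled. Of 15875 probe sets, 9 control probe sets were left out after quantile normalization. Values were floored at the 20th percentile and taken to log2. The dimmest 40%, 6347 probe sets, were left out, and 9519 were tested in limma 3.58.1 (R 4.3.3) by lmFit and eBayes, allowing for a trend with signal, with two-sided p-values adjusted by Benjamini-Hochberg over all of them. Gene names came from the platform annotation, in which 12783 probe sets had 1 symbol, 312 several and 2771 none. All 222 members' Entrez identifiers were in the GRCr8 gene table. Backgrounds count each of 7101 genes once, by its brightest tested probe set. With 2 arrays per group, their number limits the precision, and an exact permutation test of 1 value cannot go below p = 0.333. The test was also run on simulated data in which all probe sets shared a common spread, and no result here rests on that run.

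Members, lists and tests were chosen with earlier results of these data known. Named were, per direction, the 10 largest differences without overlap, members with a known role in heart muscle, the largest of each substrate group with 3 or more tested members, and members whose tested probe sets differ in sign by at least 1. Other members in the text, among them Slc6a9, Slc35b1 and Slc25a30, were named after their values were seen. Marker lists for ventricular myocytes, fibroblasts and leukocytes are reported above. Endothelial markers had 2 of 2 tested members above 0, smooth muscle markers 2 of 4, erythroid markers 2 of 2 and neural markers 2 of 2. Median differences of the tested ones were 0.26, 0.01, 0.37 and 1.33, and 51.4% of all genes were above 0. The dim markers of these lists had arrays at the floor. They differed by -0.37 for Nefl and -0.38 for S100b (neural) and -0.73 for Alas2 (erythroid). Endothelial Tie1, Pecam1 and Vwf differed by -0.51, 0.19 and 0.23.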

Additional observations from a re-analysis of the deposited data

How the results depend on the processing

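The members past the adjusted threshold were 0 in limma under every alternative except without fibronectin replicate 1, and the range over the arrays left out was 0 to 2. At an unadjusted p under 0.05 there were 4, with 2 on the deposited scale, 10 without a filter, 2 with a filter leaving out 60%, and 0 to 25 with 1 array left out. Members at least 1 higher without overlap numbered 3, with 7 without a filter, 1 with the stricter filter, 0 with an offset of 50 in place of the floor, and 2 to 14 with 1 array left out. Those at least 1 lower numbered 6, with 0 under the stricter filter, 1 with the offset, and 5 to 17 with 1 array left out. The counts above are out of 130 tested members in the main fit and in the fits with 1 array left out. They are out of 129 on the deposited scale and with the offset, 222 without a filter and 77 with the stricter filter. Counts from sets of different size cannot be compared directly, and shares over all genes are not given for these alternatives. The median difference ran from -0.10 to 0.15 over all tested members and from -0.05 to 0.22 outside Slc25 with 1 array left out. The Slc25 median of -0.11 was 0.0098 on the deposited scale, 0 without a filter, -0.20 with the stricter filter and -0.21 to -0.13 with 1 array left out.

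Of 79 named members, 58 kept their sign throughout. On the deposited scale the sign turned for Slc25a3 (0.40), Slc25a4 (0.26), Slc25a5 (0.040), Slc12a2 (0.079), Slc3a2 (0.0014) and Slc1a1 (-0.0078). With arrays shifted to the same median it turned for Slc25a3 (0.36), Slc25a4 (0.22), Slc12a2 (0.032), Slc1a1 (-0.055) and Slc4a4 (-0.014). With the mean over a gene's probe sets it turned for Slc1a1 (-0.21), Slc6a9 (-0.0585), Slc40a1 (-0.029) and Slc35b1 (0.051). Over the fits without 1 array, values lay between -0.46 and 0.51 for Slc1a1, from -0.57 to 0.25 for Slc1a5, from -0.083 to 0.125 for Slc6a9, from -0.00078 to 2.06 for Slc13a2 and from -0.026 to 0.995 for Slc16a3. It ran from -0.47 to 0.42 for Slc12a2, from -0.25 to 0.66 for Slc12a7, from -0.51 to 0.86 for Slc4a2, from -0.46 to 0.56 for Slc4a4 and from -0.38 to 0.56 for Slc40a1. It ran from -0.35 to 0.77 for Slc25a1, from -0.32 to 0.60 for Slc25a10, from -0.57 to 0.35 for Slc25a13 and from -0.12 to 0.84 for Slc25a30. It ran from -2.03 to 0.41 for Slc35a1, from -0.58 to 0.032 for Slc35b1 and from -1.75 to 0.15 for Slc44a1. The cause was not tested.

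With the replicate number as a block, 234 of all 9519 probe sets passed the adjusted threshold, against 0 without it. Among the members 0 passed, the lowest adjusted p was 0.130 against 0.743, and 6 had an unadjusted p under 0.05, while the counts of large differences were 3 and 6 as without it. The deviations of same-numbered arrays correlated at 0.27 over the tested probe sets, and with 2 pairs the samples are taken to share only a number.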
